A study of Mus musculus with 6 samples.

Results

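The immediate early genes described here are 34 genes that neurons switch on quickly and briefly after activity, among them Fos, Egr1, Arc, Npas4 and Nr4a1. They were taken by name, and every probe set that the platform annotation assigns to exactly 1 of the 34 symbols was used. All 34 genes had at least 1 such probe set, which gave 64 of the 45101 probe sets in the table. Cyr61 was found under its newer symbol Ccn1 through the RefSeq synonyms, and the other names matched directly.

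Immediate early genes respond to synaptic input without new protein synthesis. Calcium entry and cAMP activate kinases that phosphorylate CREB and the ternary complex factors at serum response elements, and these recruit polymerase to genes such as Fos and Egr1. Protein phosphatase 1 removes the activating phosphate from CREB, and inhibitor-1, once phosphorylated by protein kinase A, holds protein phosphatase 1 back. In the hippocampus these transcripts are used as markers of recently active neurons, and they also respond to novelty and stress.

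Total RNA of hippocampus from 3 samples labelled inhibitor-1 knock-out (KO) and 3 labelled wild-type (WT) was measured on 1 Affymetrix array each, 6 in all. Inhibitor-1 is the product of Ppp1r1a. Strain, sex, age, the targeting construct, how the animals were handled before death and whether each array holds a separate animal are not given in the sources used here, so the p-values speak only of sample-to-sample spread, which may be technical. The arrays are numbered 1 to 3 within each group by the replicate number in the labels, and no label says that equal numbers share a litter, a day or a batch.

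Values are probe set intensities on a linear scale, which the authors had scaled to a mean of 2500 on every array (leaving out 2% of values at each end). Ppp1r1a had 289 ± 51.5 in KO and 9259 ± 1002 in WT (SD, n = 3 each). The median intensity ran from 541.5 to 666.0 in KO and from 573.8 to 642.4 in WT, lowest on array 1 of each group. For beta-actin, the 3' probe set read 1.18 to 1.21 times the 5' one in KO and 1.24 to 1.30 times in WT, a sign of RNA integrity, without overlap between the groups. For Gapdh the same quotient was 0.821 to 0.829 in KO and 0.809 to 0.880 in WT, with overlap. Its part in the results below was not tested. Hippocampal marker genes were present, with summed intensities of 41025 to 47479 in KO and 43077 to 44230 in WT for 7 dentate granule neuron markers, and of 48555 to 53639 in KO and 47590 to 50785 in WT for 8 CA pyramidal neuron markers. In bulk tissue, fewer cells of a type and less RNA per cell cannot be told apart.

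For the comparison of groups, values were taken as log2(intensity + 16), after setting aside control probe sets and, by their 6-array mean, the dimmest 40%. That kept 53 of the 64 probe sets and 33 of the 34 genes. Maff, a small Maf transcription factor, had its only probe set below the filter, at 149, 52.6 and 299 in KO and 114, 40.1 and 218 in WT. The other 10 probe sets left out belonged to Nr4a2, Nr4a3, Plk2, Sik1, Rgs2, Gadd45b, Inhba and Cyr61, each of which had a brighter one. The brightest probe set stands for a gene below, and the others are given where they disagree.

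No immediate early gene passed the test between KO and WT hippocampus, while many of them differed between arrays of the same group by more than most genes of their brightness. Fos ranked 1st and Arc 4th of 12493 genes in that spread. For 21 of the 33 genes the lowest value of both groups was on array 3. The plot of intensities by array shows 9 of these genes together with Npas4, Inhba and Rheb.

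**Figure D1:**
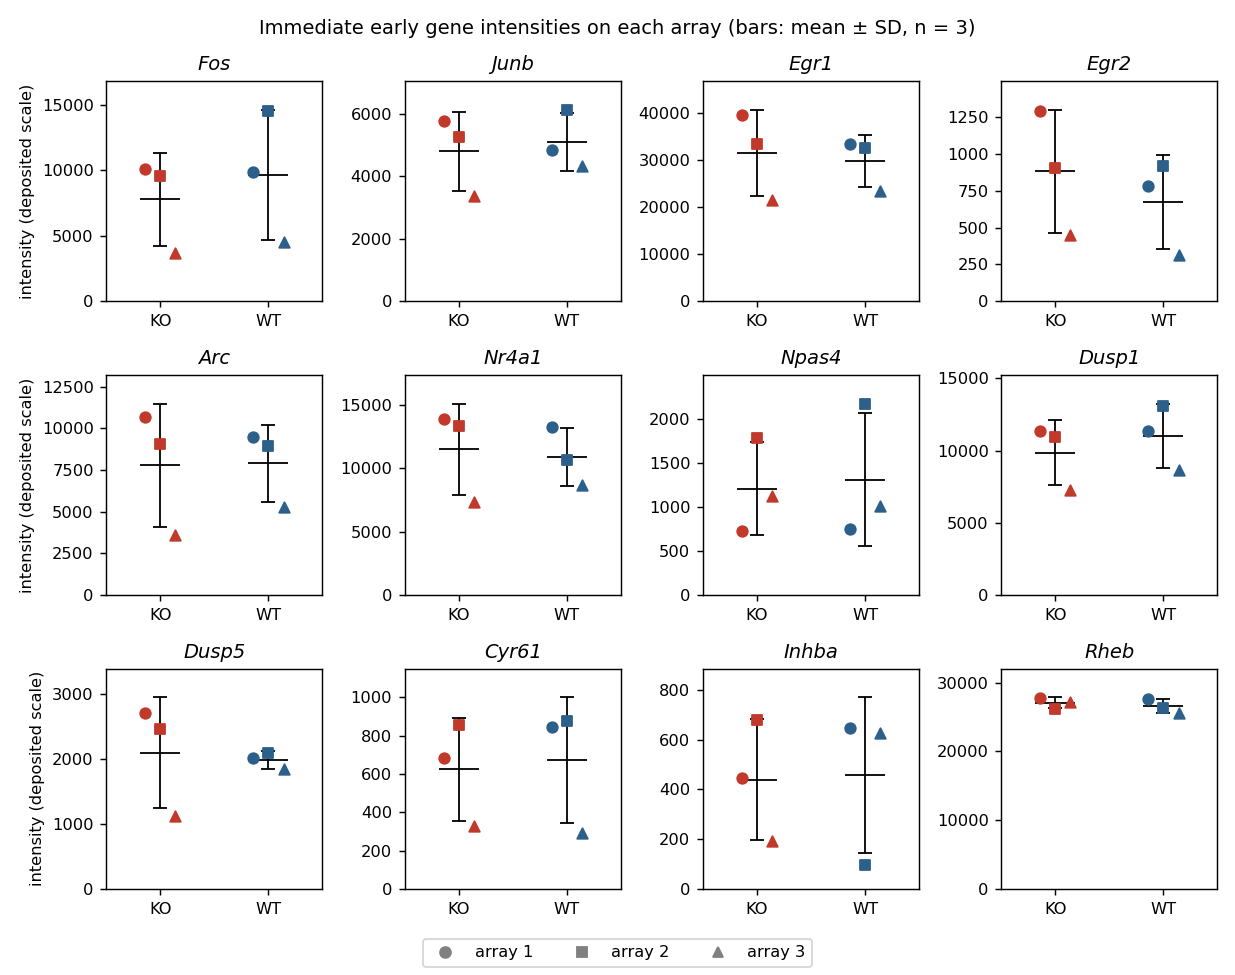
Intensity of 12 immediate early genes on each array, on a linear axis starting at 0, with KO left and WT right, each array as a point and the mean ± SD of 3 arrays as bars. Fos, Junb, Egr1, Egr2, Arc, Nr4a1, Dusp1, Dusp5 and Cyr61 are lowest on array 3 of both groups, Npas4 is lowest on array 1 of both, and Rheb varies little.

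The AP-1 subunits come first. Fos and Jun proteins pair into the AP-1 complex, which binds enhancers of activity-dependent genes. Fos, read by probe set 1423100_at, had intensities of 10085, 9548 and 3676 on KO arrays 1 to 3, against 9879, 14470.4 and 4539 on WT arrays 1 to 3. Array 3 was low in both groups, and the groups overlapped. The highest Fos value was 2.74 times the lowest in KO and 3.19 times in WT. Fos had a log2 change of -0.29 (SE 0.41, 95% interval -1.20 to 0.62), and limma gave an adjusted p of 0.991. Its sign rested on single arrays, with 0.18 without KO array 3, 0.08 without WT array 2 and -0.76 without WT array 3.

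Junb, a Jun family gene induced together with Fos, had 5761, 5261 and 3368 in KO and 4849, 6120.3 and 4311 in WT. It too was lowest on array 3 of each group, and its log2 change was -0.11 (95% interval -0.53 to 0.31). Jun, which is present at rest, was steadier, at 10626, 9585 and 8557 in KO and 11006, 10175 and 8635 in WT.

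Fosb, which also encodes the long-lived deltaFosB, was dim, at 322, 860.3 and 427 in KO and 347, 586 and 317 in WT. It was highest on array 2 of both groups. Fosl2, which encodes Fra-2, had 3293 ± 535 in KO and 3023 ± 471 in WT (SD, n = 3 each). Both of its tested probe sets were lowest on array 3 of each group. Of the 7 tested probe sets of AP-1 genes, none passed the test (limma, Benjamini-Hochberg adjusted p under 0.05).

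The EGR factors are zinc finger proteins that bind GC-rich promoter sites, and Egr1 is required for lasting forms of hippocampal plasticity. Egr1 had 39507, 33322 and 21534 in KO and 33239, 32439 and 23353 in WT. At their brightest probe sets, all 4 EGR genes had their lowest value on array 3 of both groups. Egr2, at 1289, 902 and 452 in KO and 782, 919.8 and 315 in WT, showed the same at a low level, with a highest value 2.85 times the lowest in KO and 2.92 times in WT.

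Egr3 was 1 of the 2 immediate early genes with an unadjusted p under 0.05. It had 9886, 9099 and 8639.7 in KO and 8534, 7985 and 5713 in WT at probe set 1436329_at, so every KO value lay above every WT value. The log2 change was 0.33 (SE 0.14), at a limma adjusted p of 0.988, and the dimmer probe set 1421486_at had -0.09. That dimmer probe set was lowest on array 3 in KO but highest on array 3 in WT, at 1168. Without WT array 3, the lowest value at 1436329_at, the log2 change there was 0.16. Egr4 had 1962 ± 416 in KO and 2170.3 ± 682 in WT (SD, n = 3 each), with overlap.

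The NR4A genes encode orphan nuclear receptors that act without a known hormone, and Npas4 encodes a neuron-specific factor that adjusts inhibitory synapses. Nr4a1 had 13851, 13296 and 7362 in KO and 13236, 10688 and 8719 in WT, again lowest on array 3 of each group, with a log2 change of 0.05 (95% interval -0.43 to 0.52). Nr4a1, Arc and Maff lie on chromosome 15, as does Ppp1r1a. Nr4a3 was bright at 1438796_at, with 12359 ± 1858 in KO and 12009 ± 962 in WT (SD, n = 3 each). Its dim probe set 1421080_at had 171, 809.7 and 495 in KO and 838, 661 and 524 in WT, and a log2 change of -0.66 (SE 0.49). KO array 1 carried that difference, which was -0.06 without it and 0.10 without array 1 of both groups.

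Nr4a2 was the other gene with an unadjusted p under 0.05, and its probe sets disagreed. The brightest, 1455034_at, had 12998, 11371 and 10771 in KO and 10714, 9525 and 8537 in WT, with every KO value above every WT value. Its log2 change was 0.29 (SE 0.10), at a limma adjusted p of 0.988. Probe set 1447863_s_at had 12241, 10857 and 9016 in KO and 9958, 8592 and 8878 in WT, a log2 change of 0.22, and 1450749_a_at had 3313, 3311 and 3050.3 in KO and 3105, 2397 and 2699 in WT, a log2 change of 0.24. In both of these the groups overlapped, and the log2 change at 1450750_a_at was 0.0035. The dim 1433422_at ran the other way, at 429, 404 and 236 in KO and 779.6, 508 and 559 in WT, with every KO value below every WT value and a log2 change of -0.78 (SE 0.36).

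Npas4 varied widely but was not lowest on array 3. It had 727, 1777 and 1119 in KO and 750.2, 2173 and 1010.4 in WT. Array 1 was the lowest and array 2 the highest in both groups, and the highest value was 2.44 times the lowest in KO and 2.90 times in WT. The log2 change was -0.06 (95% interval -0.93 to 0.80).

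Several other regulators of transcription were lowest on array 3 of both groups at their brightest probe sets. They were Ier5, a heat shock factor cofactor, Klf2 and Klf4, Kruppel-like factors that are also abundant in endothelium, and Tiparp, a mono-ADP-ribosyltransferase. Among all tested probe sets of a gene, this held for 2 of 3 of Ier5, 1 of 2 of Klf4 and 2 of 3 of Tiparp. Klf4 had 880.4, 1217 and 843 in KO and 784, 825 and 559 in WT at 1417394_at, with every KO value above every WT value and a log2 change of 0.43 (SE 0.26). Its other tested probe set had a log2 change of 0.07 and overlapping groups, and was lowest on array 1 of both groups. Tiparp differed by probe set, with log2 changes of -0.04 at the brightest, 0.37 at 1452161_at and -0.11 at 1452160_at. The values at 1452161_at were 3043, 2844 and 2100.2 in KO and 2284, 2098 and 1734 in WT, with overlap. Probe set 1452160_at was lowest on array 3 in KO but highest on array 3 in WT, at 1541.

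Ier2 and Btg2, an antiproliferative coregulator, followed Npas4 in their order of arrays. Ier2 had 1565, 1953 and 1791 in KO and 1757, 2417 and 1880.1 in WT, and Btg2 had 3987, 5251 and 4601 in KO and 4025, 7024 and 4308 in WT. For both genes array 1 was the lowest and array 2 the highest in each group. Their log2 changes were -0.18 for Ier2 and -0.11 for Btg2, with -0.30 at the dimmer Btg2 probe set 1448272_at. That probe set had 1446, 1595 and 1278 in KO and 1671, 2621 and 1268 in WT, lowest on array 3 of each group. Without WT array 2, the log2 change was -0.02 there and -0.04 for Ier2.

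The signalling members include the MAP kinase phosphatases, which shut off the ERK signal that induces them. Dusp1 had 11380.1, 10916 and 7258 in KO and 11380.1, 13055 and 8642 in WT. Dusp6, specific for ERK, had 13002, 9345 and 7692 in KO and 11317, 9310.0 and 7801 in WT. Both were lowest on array 3 of each group. Dusp5, the nuclear ERK phosphatase, had 2712, 2464 and 1129 in KO and 2024, 2102 and 1841 in WT, and the mean of arrays 1 and 2 was 2.29 times array 3 in KO and 1.12 times in WT.

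Gadd45b, which takes part in activity-induced DNA demethylation, resembled Dusp5, with 3538, 3571 and 1658 in KO and 2719, 3297 and 2709 in WT. Its relative Gadd45g had 4397, 4819.9 and 2853 in KO and 3299, 4578 and 4169 in WT, low on array 3 in KO but not in WT. Plk2, a kinase that weakens overactive synapses, had 23374 ± 3566 in KO and 23069 ± 789.6 in WT (SD, n = 3 each). Sik1, a CREB-coactivator kinase, was dim, at 538 ± 145 in KO and 531 ± 140.4 in WT (SD, n = 3 each).

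Rgs2, which speeds GTP hydrolysis by G proteins, and Rheb, the GTPase that activates mTORC1, varied least. Rheb had 27751, 26188 and 27213 in KO and 27661, 26326 and 25626 in WT, a log2 change of 0.03 with a 95% interval of -0.12 to 0.17. At its main probe set Rgs2 had a log2 change of 0.0047 with a 95% interval of -0.22 to 0.22. The intervals of both were narrower than that of Fos.

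The effector genes act at the synapse or outside the cell. Arc, which promotes internalisation of AMPA receptors, had 10663, 9074 and 3613 in KO and 9496, 8929 and 5273 in WT. Array 3 was again the low one in both groups, at 2.95-fold between the highest and lowest KO value and 1.80-fold in WT, and the log2 change was -0.12 (SE 0.34, 95% interval -0.87 to 0.63), at a limma adjusted p of 0.998. Without KO array 3 it was 0.36. Cyr61, a matricellular protein gene that responds to serum, had 686, 859 and 327 in KO and 845, 878 and 293 in WT.

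Nptx2, a pentraxin that clusters AMPA receptors on interneurons, was lowest on array 3 in KO and highest on array 3 in WT. It had 803, 868 and 696 in KO and 1022, 865 and 1137 in WT, a log2 change of -0.34 (SE 0.23). Its dimmer probe set 1449960_at had 421, 500.0 and 339.8 in KO and 649.9, 585 and 645 in WT, with every KO value below every WT value and a log2 change of -0.57 (SE 0.30). Ptgs2, which encodes cyclooxygenase-2, had 2660.0 ± 196 in KO and 2788 ± 586 in WT (SD, n = 3 each).

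Inhba, the activin beta A subunit gene, had the largest within-group SD of the 33 genes and was close to the filter. Its values were 447, 678 and 193 in KO and 647, 95.1 and 628 in WT, and its low arrays were KO array 3 and WT array 2. Its log2 change of 0.17 had a 95% interval of -1.34 to 1.67.

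The group comparison as a whole was then read against all probe sets tested. Of the 53 probe sets, 0 passed at an adjusted p under 0.05 in limma, against 0.0111% of all 26999, and the lowest adjusted p was 0.988. At an unadjusted p under 0.05 there were 2 (Egr3 and Nr4a2, both higher in KO), where 4.38% of all probe sets had one, 2.17% with KO higher and 2.21% with KO lower. The groups did not overlap for 5 of the 53, which is 9.43%, beside 9.89% of all probe sets. Of these 5, the 3 with KO above WT were single probe sets of Egr3, Nr4a2 and Klf4, where 4.97% of all probe sets lay so, and the 2 with KO below WT were of Nr4a2 and Nptx2, where 4.91% did. These shares were near those of all probe sets.

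At the level of genes, 0 of 33 passed, beside 0.0160% of all genes, and 2 had an unadjusted p under 0.05, beside 4.75%. Of the 33, 17 had a log2 change above 0 and 16 below, beside 50.1% above 0 of all genes. The median log2 change was 0.0047, ranging from -0.34 for Nptx2 to 0.43 for Klf4, and the median over all 12493 genes was 0.00033. The median size of the change without its sign was 0.07 for the 33 genes and 0.10 for all genes. By role, the median log2 change was -0.05 for 5 AP-1 genes, 0.19 for 4 EGR genes, 0.04 for the NR4A genes and Npas4, -0.0048 for 6 other regulators, 0.0047 for 9 signalling genes and -0.06 for 5 effectors. The plot of log2 changes shows how wide the intervals were.

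**Figure D2:**
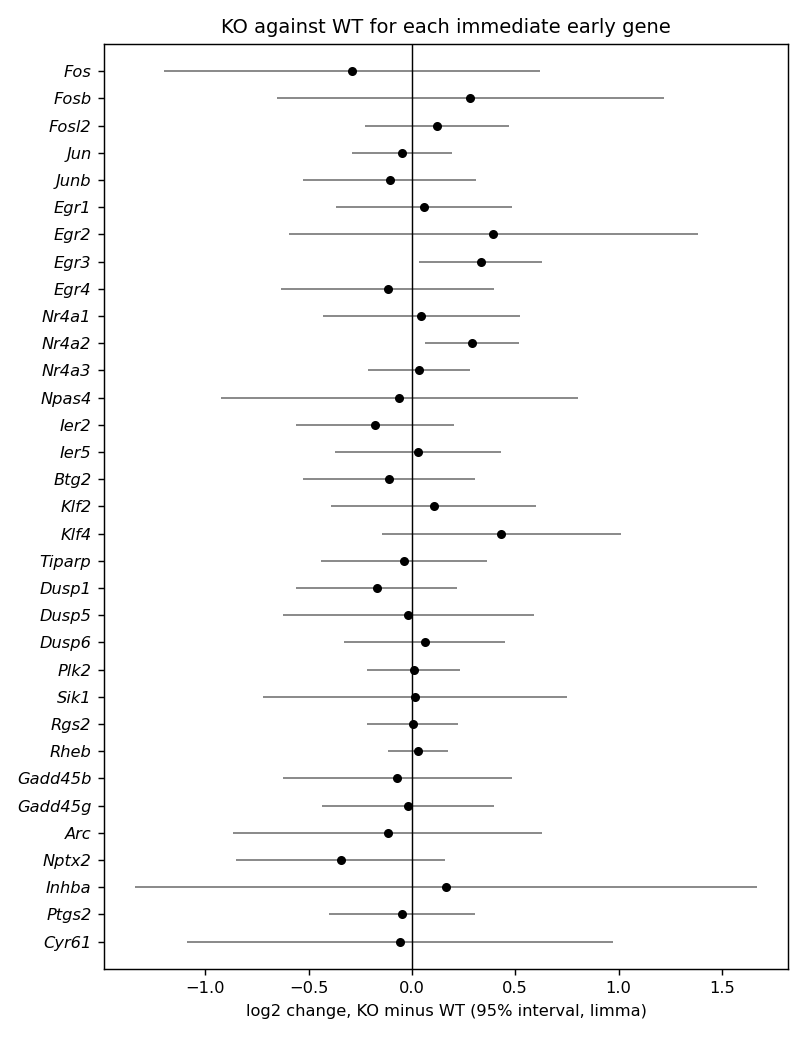
Log2 change of each of the 33 tested immediate early genes, KO minus WT, at its brightest probe set, as a point with its 95% interval from limma. The intervals of Egr3 and Nr4a2 lie above 0 before adjustment over all probe sets, and those of Fos, Egr2, Npas4, Inhba and Cyr61 are among the widest.

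Beside the difference between groups, the spread within groups was measured for each gene. It was taken as the SD of the log2 values around their own group mean, pooled over both groups. The median was 0.33 for the 33 genes and 0.16 over all tested genes. Dim genes vary more than bright ones, so each SD was divided by the SD that the limma intensity trend gives at that brightness. The ratio was above 1 for 27 of the 33 genes, where 41.9% of all genes were above 1, and above 2 for 15 of them (45.5%), where 3.53% of all genes were. For 29 of the 33 genes the within-group SD exceeded the size of the log2 change, which held for 68.9% of all genes.

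Fos had an SD of 0.83 against 0.12 on the trend, the highest ratio (6.95) of all 12493 genes. Arc had 0.68 against 0.12, a ratio of 5.55, and Egr1 0.38 against 0.09, a ratio of 4.09 at rank 16. Nr4a1 (3.81) stood at rank 25, Dusp1 (2.97) at rank 75 and Dusp6 (2.91) at rank 82. The ratio was also above 2 for Gadd45b, Npas4, Ier5, Junb, Btg2, Inhba, Dusp5, Gadd45g and Egr2. It was below 1 for Ier2, Rgs2, Klf4, Sik1, Nptx2 and Rheb, the last at 0.53. The plot of spread against brightness shows Fos and Arc far above the trend.

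**Figure D3:**
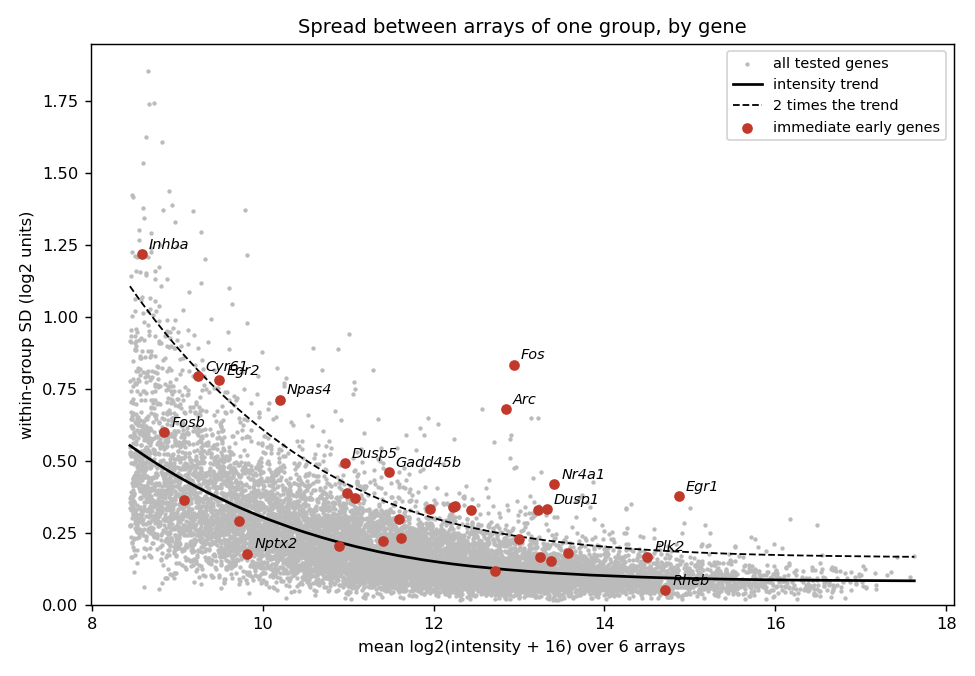
Within-group SD in log2 units against the mean log2(intensity + 16) over 6 arrays, for all 12493 tested genes (grey) and the 33 immediate early genes (red), with the limma intensity trend (solid line) and 2 times the trend (dashed line). Of the red points, 15 lie above the dashed line, and Fos, at an SD of 0.83, is the farthest above the trend relative to it.

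The spread had a shared direction. On KO array 3 the lowest KO value was found for 26 of 33 genes (78.8%), where 32.4% of all genes were lowest there, and on WT array 3 the lowest WT value for 23 of 33 (69.7%), where 35.1% of all genes were. Array 3 was the lowest of its group in both groups for 21 of 33 genes (63.6%), beside 11.4% of all genes. Array 2 was the lowest in both groups for 0 of 33, beside 10.9% of all genes, and array 1 for 5 of 33, beside 13.4%. Array 3 was the highest in both groups for 0 of 33, beside 11.3%.

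The 5 genes lowest on array 1 of both groups were Npas4, Ier2, Btg2, Sik1 and Ptgs2. Of the 21 genes lowest on array 3 of both, 11 had an SD above 2 times the trend. For the 21 genes, the mean of arrays 1 and 2 was 1.10 to 2.73 times array 3 in KO (median 1.54) and 1.11 to 2.94 times in WT (median 1.38). Over all tested probe sets of the 33 genes, 29 of 53 (54.7%) were lowest on array 3 in both groups, beside 10.9% of all probe sets.

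The median deviation of the 33 genes from their group means was 0.15, 0.18 and -0.27 on KO arrays 1 to 3 and 0.13, 0.12 and -0.22 on WT arrays 1 to 3 on the log2 scale. Over all tested genes it stayed between 0.0005 and 0.0092 in KO and -0.000027 and 0.0042 in WT. The heat map of deviations shows genes low on array 3 of both groups in all 6 role groups, but not every gene was. Among the 5 effectors only 2 were, and their median deviation was -0.80 on KO array 3 but 0.18 on WT array 3.

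**Figure D4:**
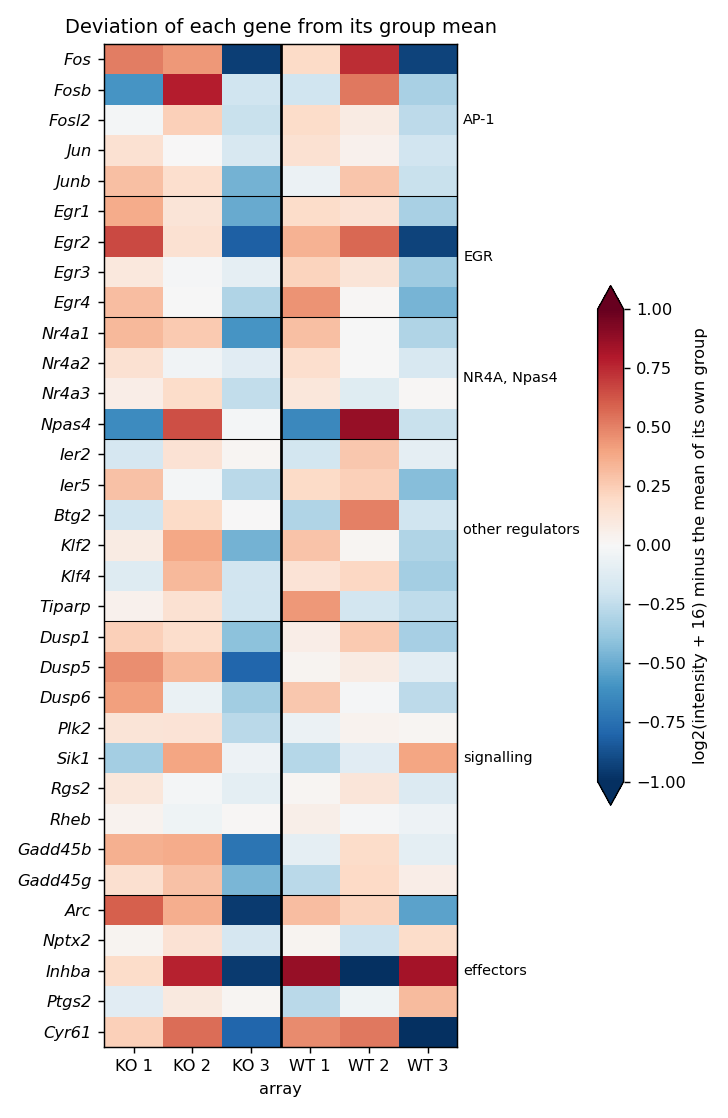
Deviation of log2(intensity + 16) from the mean of the gene's own group, for 33 immediate early genes in rows by role and the 6 arrays in columns, KO left of WT. Blue cells fill much of KO array 3 and WT array 3, where the median deviation is -0.27 and -0.22, and Npas4, Ier2 and Btg2 are low on array 1 instead.

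Array 3 was left out of both groups to see what rested on it, an alternative chosen after seeing the data. The median within-group SD of the 33 genes was then 0.16, against 0.15 for all genes. The SD was above the trend for 18 of 33 genes, where 37.4% of all genes were, and above 2 times the trend for 5 of 33, where 4.83% of all genes were. Fos then had an SD of 0.28 against 0.11 on the trend, and Arc 0.124 against 0.115. Npas4 kept a wide spread of 0.99 against 0.27, and Btg2 0.45 against 0.14. The 5 genes still above 2 times the trend were Fos, Npas4, Btg2, Dusp6 and Inhba. Without array 3, 0 of the 53 probe sets passed the test, and the median log2 change of the genes was 0.10.

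Promoters are shown for genes low on array 3 of both groups (Fos, Junb, Nr4a1, Dusp1), for Npas4, which was low on array 1, and for the steady Rheb. The sequences are the 250 bases before the annotated start, from RefSeq on GRCm38.p6, written 5' to 3' on the gene's strand in lower case. Capitals mark letters found by a search for the cAMP response element (CRE, TGACGTCA), its core TGACG, the CArG box bound by serum response factor, the AP-1 site TGANTCA, the EGR site GCGNGGGCG and the element TATAAA, on both strands. A full CRE holds the core on each strand, so the 2 counts overlap.
Fos, chr12:85473640-85473889, plus strand: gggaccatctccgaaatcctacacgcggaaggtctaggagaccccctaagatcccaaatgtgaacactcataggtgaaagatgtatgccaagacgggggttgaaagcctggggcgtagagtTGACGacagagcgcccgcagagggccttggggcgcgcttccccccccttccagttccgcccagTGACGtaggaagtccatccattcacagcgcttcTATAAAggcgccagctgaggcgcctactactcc
Junb, chr8:84978749-84978998, minus strand: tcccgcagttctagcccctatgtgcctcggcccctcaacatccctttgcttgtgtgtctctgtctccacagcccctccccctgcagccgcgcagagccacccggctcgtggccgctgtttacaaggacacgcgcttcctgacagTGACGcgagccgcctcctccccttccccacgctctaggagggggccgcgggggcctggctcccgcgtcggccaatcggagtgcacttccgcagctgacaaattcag
Nr4a1, chr15:101266596-101266845, plus strand: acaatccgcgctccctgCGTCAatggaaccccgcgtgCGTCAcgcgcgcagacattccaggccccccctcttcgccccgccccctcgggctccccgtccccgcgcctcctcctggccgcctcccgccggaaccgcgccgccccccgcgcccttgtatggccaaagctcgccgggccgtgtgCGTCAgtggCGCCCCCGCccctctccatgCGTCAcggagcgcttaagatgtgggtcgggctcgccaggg
Dusp1, chr17:26508473-26508722, minus strand: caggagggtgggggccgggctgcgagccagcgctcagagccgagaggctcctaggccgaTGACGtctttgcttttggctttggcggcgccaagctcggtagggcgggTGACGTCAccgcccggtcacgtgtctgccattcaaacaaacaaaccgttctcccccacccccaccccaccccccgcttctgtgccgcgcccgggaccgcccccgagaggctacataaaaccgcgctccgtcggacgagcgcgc
Npas4, chr19:4989972-4990221, minus strand: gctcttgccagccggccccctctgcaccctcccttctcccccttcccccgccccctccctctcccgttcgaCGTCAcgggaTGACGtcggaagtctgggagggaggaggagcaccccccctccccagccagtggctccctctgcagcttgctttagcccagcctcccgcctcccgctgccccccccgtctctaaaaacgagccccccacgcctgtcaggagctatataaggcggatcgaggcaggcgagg
Rheb, chr5:24842362-24842611, minus strand: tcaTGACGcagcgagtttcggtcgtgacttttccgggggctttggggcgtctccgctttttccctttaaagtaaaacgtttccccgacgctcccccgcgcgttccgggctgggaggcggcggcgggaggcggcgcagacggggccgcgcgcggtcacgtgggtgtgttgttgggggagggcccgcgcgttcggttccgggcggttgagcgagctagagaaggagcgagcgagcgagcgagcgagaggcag

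RefSeq promoters were matched for 28 of the 34 genes, and Arc, Egr1, Egr3, Ier2, Nptx2 and Sik1 had no entry. Where a gene had several starts, as Egr2 and Maff did, the first listed was used. Only the 250 bases before the start were searched, so sites farther away are not in the counts below. The CRE core was found in 17 of 28 windows (60.7%), beside 17.9% of the 27025 promoters of the same length in the table. The full CRE was in 3 of 28 (10.7%, all promoters 1.62%), namely Dusp1, Btg2 and Plk2. The EGR site was in 9 of 28 (32.1%, all promoters 4.65%), the CArG box in 1 of 28 (3.57%, all promoters 1.40%), TATAAA in 6 of 28 (21.4%, all promoters 13.0%) and the AP-1 site in 0 of 28 (all promoters 6.87%).

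In the Fos window the core stands 66 bases before the start, with another 129 bases before it and TATAAA at 33 bases. Nr4a1 holds the core at 4 places and an EGR site 60 bases before the start. The core was also found in the window of Rheb, 247 bases before its start. Among tested genes with a promoter, the SD was above 2 times the trend for 7 of 17 with the core and for 6 of 10 without it, with median ratios of 1.86 and 2.15. A match is a string of letters and not a measured binding site.

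Other genes of the same programme were read from a list of 36 further activity-regulated genes, of which 34 were tested. None passed in limma (0.0160% of all genes did), 20 had a log2 change above 0 and 14 below (50.1% of all genes were above 0), and the median was 0.05. Bhlhe40, a clock-linked repressor, had 11841, 10318 and 10228 in KO and 9563, 8963 and 8795 in WT, without overlap, and its log2 change was 0.24 (SE 0.09) at a limma adjusted p of 0.988. Next among those above 0 were Spry4 (0.35) and Ier3 (0.36), and among those below 0 Nrn1 (-0.12), Vgf (-0.26) and Dusp4 (-0.24). Array 3 was the lowest in both groups for 8 of these 34 (23.5%), and 3 of 34 (8.82%) had an SD above 2 times the trend. Bdnf, the neurotrophin, had 6177, 6886 and 4942 in KO and 6504, 6776 and 6684 in WT. Vgf, a secreted neuropeptide precursor, was among the 8, at 10670.5, 8806 and 6152 in KO and 11633, 9506 and 8901 in WT.

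Of 30 kinases and transcription factors upstream of these genes, 26 were tested. None passed (0.0160% of all genes did), 14 had a log2 change above 0 and 12 below (50.1% of all genes were above 0), and the median was 0.01. Prkar2b, a regulatory subunit of protein kinase A, had 3217, 2699.8 and 3577 in KO and 2236, 2322 and 1872 in WT, a log2 change of 0.56 (SE 0.15) at a limma adjusted p of 0.988, without overlap, and its other tested probe sets had 0.22 and 0.0033. Camk2a, the alpha subunit of CaM kinase II, had 98599, 92973 and 94516 in KO and 105413, 101473 and 114397 in WT, a log2 change of -0.17 (SE 0.07) without overlap, and limma gave an adjusted p of 0.988. Crebbp (0.14), Rps6ka3 (0.16), Prkaca (-0.17) and Map2k2 (-0.16) followed. Array 3 was the lowest in both groups for 3 of these 26 (11.5%), and 1 of 26 (3.85%) had an SD above 2 times the trend. Upstream transcripts thus had shares close to those of all genes.

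Marker genes of cell types were read on the same arrays. In none of the marker lists (neurons of 2 kinds, endothelium, choroid plexus, meninges, microglia, astrocytes) was a gene lowest on array 3 of both groups. The mean level of 8 CA pyramidal neuron markers on the log2 scale was 12.34, 12.33 and 12.53 on KO arrays 1 to 3 and 12.36, 12.36 and 12.40 on WT arrays 1 to 3, and that of 7 dentate granule neuron markers was 11.87, 12.02 and 11.82 in KO and 11.90, 11.79 and 11.80 in WT. For 10 endothelial and mural cell markers it was 10.48, 10.68 and 10.95 in KO and 10.63, 11.08 and 10.89 in WT. For 10 choroid plexus and ependymal markers it was 11.99, 12.80 and 12.65 in KO and 11.35, 12.30 and 12.33 in WT, lowest on array 1. For 9 meningeal and fibroblast markers it was 10.91, 11.49 and 11.39 in KO and 10.87, 10.99 and 10.89 in WT.

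None of these markers passed the test between KO and WT in limma, beside 0.0160% of all genes. At an unadjusted p under 0.05 in limma there were 3 of 9 meningeal and 2 of 10 choroid plexus markers, higher in KO. There was also 1 of 10 endothelial markers, lower in KO, and no marker of the other lists, beside 4.75% of all genes. Of all genes, 50.1% had a log2 change above 0. The log2 change was above 0 for 9 of 10 choroid plexus markers (median 0.58), 9 of 9 meningeal (0.46), 6 of 10 endothelial (0.01), 6 of 7 dentate (0.08), 5 of 8 CA (0.02), 4 of 8 microglia (0.06) and 4 of 7 astrocyte markers (0.03). All had values above 0. Their summed intensities were 224264 to 274096 in KO and 200651 to 284320 in WT for choroid plexus, 34222 to 49148 in KO and 29914 to 38067 in WT for meninges, and 26771 to 37058 in KO and 30482 to 35714 in WT for endothelium. They were 58348 to 62940 in KO and 57035 to 60194 in WT for 8 microglia markers, and 219474 to 224873 in KO and 211887 to 222530 in WT for 7 astrocyte markers. The part of cell makeup in the spread of immediate early genes was not tested. The plot of list medians by array sets these lists side by side.

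**Figure D5:**
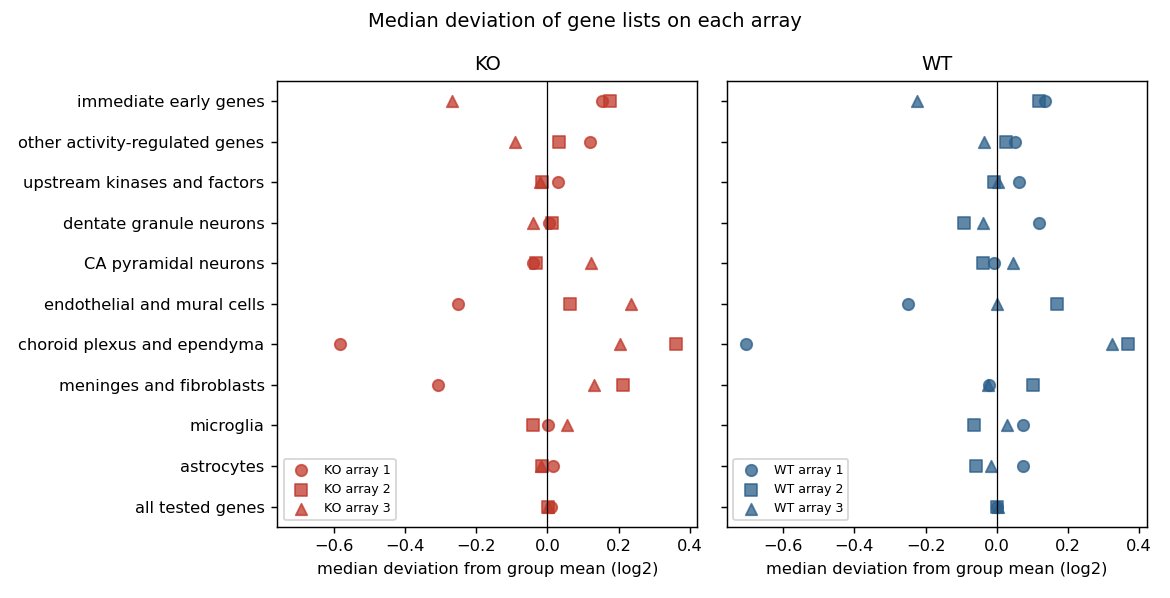
Median deviation from the group mean, in log2 units, of each gene list on KO arrays (left) and WT arrays (right), with 1 point for each array. Immediate early genes lie at -0.27 on KO array 3 and -0.22 on WT array 3, choroid plexus markers at -0.58 on KO array 1 and -0.71 on WT array 1, and all tested genes near 0 on every array.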

How the data were processed

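Hippocampal RNA was measured on 6 one-colour arrays, 3 KO and 3 WT. The deposited table holds intensity values per probe set, linear, and for the software behind them nothing is given in the sources used here. From the values, the authors had scaled every array to a trimmed mean of 2500. Groups came from the sample titles. Probe sets were named from the platform annotation (1 symbol for 34958, several for 932, none for 9211), and chromosomes and synonyms from RefSeq GRCm38.p6. No coordinates of genes are given from it, other than those of the promoter sequences.

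The KO minus WT difference was fitted with limma 3.58.1 (R 4.3.3) on log2(intensity + 16), with group as the only term, an intensity trend, two-sided tests and Benjamini-Hochberg adjustment over 26999 probe sets. Left out were 64 control probe sets and the dimmest 40% by mean. The threshold was 0.05. The spread within groups was described, not tested. The fit was tested on simulated data. The genes and lists were chosen with earlier results of these data known. Per-array values are given for Fos, Junb, Egr1, Arc, Npas4 and Nr4a1, for the probe sets of smallest p in each direction, for the genes of largest within-group SD and, beyond that rule, for other genes where they show a pattern. Alternatives covered pseudocounts, filters, scalings, variance models, the replicate number as a block and leaving out arrays. The number of arrays limits the precision.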

Additional observations from a re-analysis of the deposited data

How the results depend on the processing

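Under the 17 alternatives in which calls were counted, 0 immediate early probe sets passed in limma, and the lowest adjusted p of a named one was 0.331, for Nr4a2 without array 1 of both groups. The median log2 change of the genes stayed between -0.11 (without KO replicate 2) and 0.18 (without KO replicate 3), and their median within-group SD between 0.16 (without array 3 of both groups) and 0.42 (median centring). Leaving out 1 array gave 0.26 to 0.36, and it was 0.26 without KO replicate 3 and 0.18 with the replicate block. Over all probe sets, the count higher in KO was 0, with 7 under the replicate block, 7 without array 1 of both groups and 0 to 2 leaving out 1 array, with 2 without KO replicate 1. The count lower in KO was 3, with 3 to 4 leaving out 1 array. It was 1 without an intensity trend, 1 without array 3 of both groups and 7 without array 1 of both groups. A 20% filter, median centring, quantile normalization, weights for the arrays and the replicate block each gave 4. The cause of these changes was not tested. Of 23 named immediate early probe sets, 11 changed sign when 1 array was left out (Fos, Junb, Egr1, Egr2, Arc, Npas4, Nr4a1, Inhba, Cyr61, Fosb and Dusp5), none of which had passed. Leaving out array 1 or array 3 of both groups was chosen after seeing the data, as were the following counts. Array 3 was the lowest of both groups for 21 of 33 genes under quantile normalization and other pseudocounts and for 24 under median centring, where 22.9% of all genes were. The SD was above 2 times the trend for 14 genes under median centring (1.497% of all genes) and 16 under quantile normalization (3.78%). The replicate numbers are not tied to a pairing by any label, and the deviations of same-numbered arrays from their group means correlated at 0.24, 0.05 and 0.0998 over all probe sets for numbers 1 to 3, and at 0.60, -0.03 and 0.31 over the 33 immediate early genes. Arrays of different numbers correlated at -0.55 to 0.11 over the same 33 genes and at -0.16 to 0.11 over all probe sets. Over all probe sets, KO array 2 with WT array 3 (0.11) exceeded the same-number values for numbers 2 and 3. For want of a label, the number was not taken as a pairing, and whether equal numbers share a source was not tested. Under the replicate block 0 immediate early probe sets passed by adjusted p. Unadjusted p-values were not counted there. The median SE over all probe sets was 0.18, while that of Fos was 0.41.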

Other observations

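The genes next to Fos in spread relative to brightness were picked after their values were seen. Of the 30 genes with the highest ratio of within-group SD to the trend, 4 were immediate early genes (Fos, Arc, Egr1 and Nr4a1). Array 3 was the lowest in both groups for 7 of the 30, those 4 together with Efna2, Lamp2 and Srsf2, and array 1 for 17 of the 30. The array 1 set held choroid plexus genes such as Kcnj13, a potassium channel, with 7429, 15660.0 and 13967 in KO and 3904, 8900.3 and 9424 in WT, and Kl, with 3881, 10203 and 9353 in KO and 3198, 6578 and 6160.4 in WT. The arrays thus differed within groups in at least 2 sets of genes, low on different arrays. Fabp7, a fatty acid binding protein of glia and progenitors, was lowest on array 1 of both groups as well. Penk, the enkephalin precursor gene, was highest on array 1 of both groups, with 6499.9, 2937 and 2768 in KO and 5503, 2948 and 3316 in WT. Its log2 change was -0.0084.

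Camk2a was also looked at by probe set after its values were seen. Of its 5 tested probe sets, 4 had every KO value below every WT value, with log2 changes of -0.28, -0.28, -0.28 and -0.17, and none passed in limma (adjusted p = 0.988). The remaining one, the dimmest, had a log2 change of 0.14. Over all tested probe sets, 4.91% had every KO value below every WT value. The 4 probe sets read the same gene in the same RNA samples, so they are not independent of each other.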
